A study of Mus musculus with 4 samples.

Results

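Cytochrome P450 genes outside the Cyp2a and Cyp2b subfamilies were followed as a family across 4 mouse liver tumours, by the relative DNA copy number at each gene. Members were all autosomal genes that the array names Cyp followed by a digit, without the 7 genes of Cyp2a and Cyp2b. This gave 72 of the 21343 autosomal genes on the array, covered by 217 of 159076 autosomal probes and spread over 15 chromosomes. The most densely covered member was Cyp7b1 with 19 probes, and 16 members had 1 probe each. The rule uses gene names and chromosomes and no measured value.

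The study used array comparative genomic hybridization, which hybridizes DNA of a tumour and of a reference, each with its own dye, to 1 set of oligonucleotide probes and compares their brightness. The 4 tumours came from 4 mice labelled male and Trp53-/-, and the series title restricts the loss of Trp53, which encodes the tumour suppressor p53, to the liver of C57BL/6J mice. The reference was spleen DNA pooled from 3 sex-matched littermates, which the labels give the same genotype and sex, although the labelling protocol names liver. Tumour DNA carried Cy5 and the reference Cy3 on all 4 arrays, and neither the promoter that drove the deletion nor the age of the mice is given in the sources used here. All tumours form 1 group and their numbers have no order. Each value below is the log2 ratio of tumour over reference, centred on the median of the array's autosomal probes, so 0 marks the typical autosomal copy number of that tumour and a positive value more DNA than that. A gene's value is the mean over its probes. A bulk ratio cannot tell a change in a share of the cells from a smaller change in all of them.

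Cytochrome P450 enzymes are haem proteins that insert an oxygen atom into their substrate. Those of families 1 to 3 act mainly on drugs, carcinogens and other foreign compounds and are abundant in hepatocytes, those of family 4 mainly hydroxylate fatty acids, and the higher families mostly serve bile acids, sterols, steroid hormones, retinoic acid and vitamin D. In the mouse many have multiplied by tandem duplication, so that related genes stand side by side in clusters. The copy number of such a cluster is therefore read by probes that lie close together on 1 chromosome.

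The probes that the results turn on are shown with every G and C in capitals, because the ratios on the array of tumour 2 varied with the G and C content of the probe, as described further on. The 4 Cyp2d probes are shown since they are the only probes of that cluster's genes. The probes of Cyp1a2 and Cyp46a1 are the only ones of those genes, and the last 3 are the probes of Cyp4a12a, Cyp2j9 and Cyp2c50 that differed most between tumours. Sequences and positions (build mm9) are those of the deposited array files, written as the files give them; the strand is not given there, and exons, introns and UTRs were not analysed here.
Cyp2d11: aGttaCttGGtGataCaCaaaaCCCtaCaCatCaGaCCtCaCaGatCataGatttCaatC
Cyp2d9: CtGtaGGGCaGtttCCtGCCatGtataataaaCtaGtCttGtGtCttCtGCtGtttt
Cyp2d34: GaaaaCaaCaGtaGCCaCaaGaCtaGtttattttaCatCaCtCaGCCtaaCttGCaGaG
Cyp2d40: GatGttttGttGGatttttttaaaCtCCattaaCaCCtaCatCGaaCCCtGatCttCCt
Cyp1a2: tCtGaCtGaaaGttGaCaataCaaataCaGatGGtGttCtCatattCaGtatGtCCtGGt
Cyp46a1: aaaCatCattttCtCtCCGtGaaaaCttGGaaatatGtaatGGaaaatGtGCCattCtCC
Cyp4a12a: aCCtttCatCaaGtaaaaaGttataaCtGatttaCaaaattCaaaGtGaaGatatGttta
Cyp2j9: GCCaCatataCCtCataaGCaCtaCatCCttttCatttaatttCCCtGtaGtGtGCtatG
Cyp2c50: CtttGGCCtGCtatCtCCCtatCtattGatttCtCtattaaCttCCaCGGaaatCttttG
The Cyp2d probes lay at chr15:82221225-82221284 (Cyp2d11), chr15:82287210-82287266 (Cyp2d9), chr15:82446382-82446440 (Cyp2d34) and chr15:82593263-82593321 (Cyp2d40). The probe of Cyp1a2 lay at chr9:57526167-57526226 and that of Cyp46a1 at chr12:109588757-109588816. The last 3 lay at chr4:114975399-114975458 (Cyp4a12a), chr4:96245598-96245657 (Cyp2j9) and chr19:40165792-40165851 (Cyp2c50). Although many of the genes are close relatives, no pair of the 217 member probes reached 80% identity in a global alignment on either strand, counted as 60 bases less the edits needed, over 60. The closest pair, of Cyp3a41a and Cyp3a44, reached 78.3%.

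All member probes were well above background in both channels on all 4 arrays. The spread between neighbouring autosomal probes, given as an SD, was 0.14, 0.38, 0.16 and 0.17 for tumours 1 to 4, so the array of tumour 2 was the least precise. Tumours 1 and 2 lay on 1 slide and tumours 3 and 4 on another. On chromosomes X and Y, which hold no member, the arrays of tumours 1 and 4 went against the labels, which give male for both channels. X averaged -0.82, -0.054, -0.0061 and 0.84 and Y averaged 2.22, -0.087, -0.20 and -2.35 in tumours 1 to 4. Over all placed probes the arrays of tumours 1 and 4 therefore correlated at r = -0.61, whereas over autosomal probes every pair of arrays correlated positively, at 0.14 to 0.50. The direction stated by the dyes was kept, and results with the sign of tumour 1 or tumour 4 turned are given beside those that rest on them or with the processing alternatives.

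Most P450 genes were close to the typical autosomal copy number. The means over the 4 tumours ran from -0.35 (Cyp4a12a) to 0.42 (Cyp2d40), with a median of -0.011 over the 72 members and -0.0040 over all autosomal genes. The SD over tumours had a median of 0.11 for the members and 0.12 for all genes. Each gene with at least 2 probes was tested against 0 with limma, with Benjamini-Hochberg adjustment over all 13389 such autosomal genes. Of the 56 members tested, 0 were called higher and 0 lower at an adjusted p under 0.05, and the share of all tested genes called was 0.0% in either direction. At an unadjusted p under 0.05 the limma fit had 8 of the 56 members (14.3%), against 19.0% of all tested genes. After the mean of the chromosome had been subtracted from each gene, limma again called 0 members higher and 0 lower (0.0% of all genes either way), with 7 members (12.5%) at an unadjusted p under 0.05 against 13.0% of all. Normexp background correction gave 3 members higher and 5 lower, beside 647 and 822 of all genes, and leaving out tumour 2 gave 2 lower, beside 746. With the slide as a random block 4 were lower, beside 640, at a correlation within slides of -0.34. This correlation was estimated from 2 slides of 2 arrays. With it the mean of Cyp1a1 stayed at -0.23, while its standard error was 0.045, against 0.057 without the block. The 4 arrays limit the precision of every mean, and the fit leaves out the spread of the reference.

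**Figure D1:**
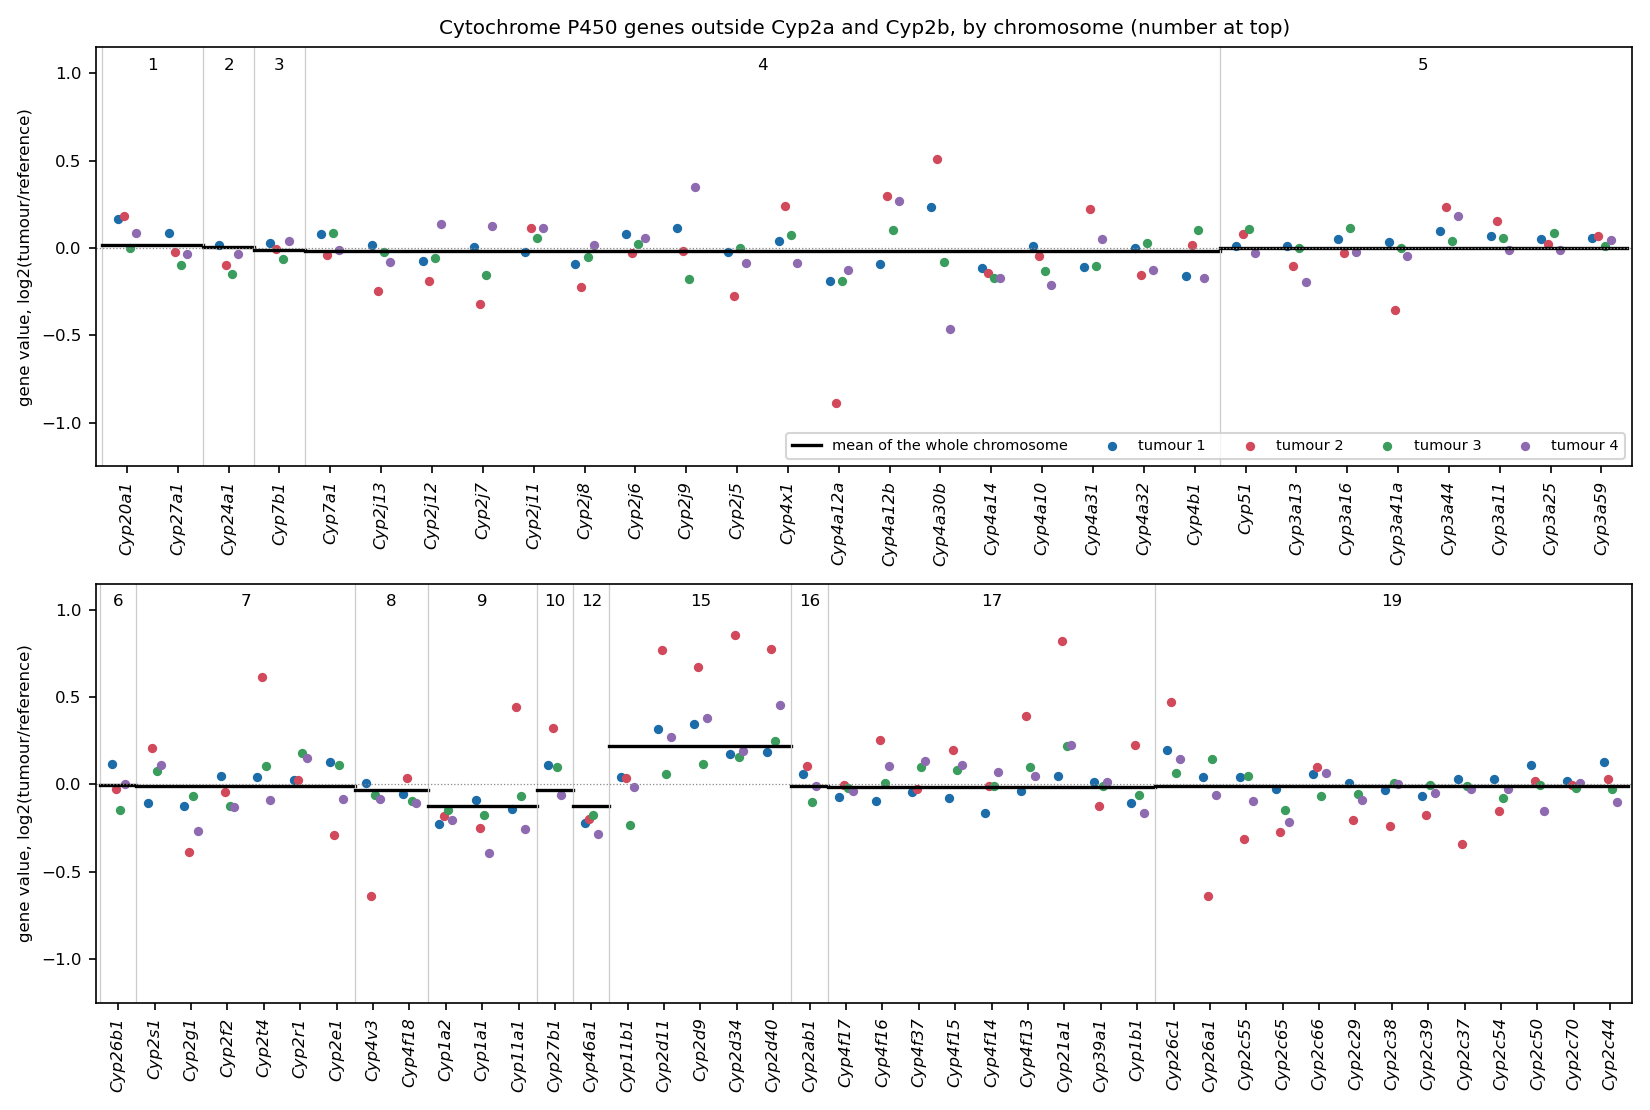
Gene value (mean log2 ratio of tumour over reference over the probes of a gene, vertical axis) of the 72 P450 genes, ordered by chromosome and position along the horizontal axis, with 1 point per tumour; black lines are the mean of the whole chromosome over the 4 tumours. Most points lie near 0, the 4 Cyp2d genes of chromosome 15 lie above it in every tumour, and the points farthest from 0 are mostly those of tumour 2.

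The sign of the ratio was shared by all 4 tumours at few of the genes. Of the 56 members with at least 2 probes, 4 (7.14%) were above 0 in all 4 tumours, against a share of 14.3% of all such genes. Another 8 (14.3%) were below 0 in all 4, against 16.8%. Counting members with 1 probe as well, 9 of 72 (12.5%) were above 0 and 10 (13.9%) below in all 4, against 15.3% and 15.6% of all genes. With the mean of the chromosome subtracted, 5 (8.93%) of the 56 were above and 6 (10.7%) below 0 in all 4, against 14.2% and 13.8%, and of all 72 members 6 (8.33%) were above and 9 (12.5%) below, against 15.2% and 12.9%. The members' shares were below those of all genes in each of these counts, in some by little (12.5% against 12.9%). The counts share genes and values, so they do not repeat the result independently. An exact sign-flip test over 4 tumours cannot reach a p of 0.05, so none was used to call a gene.

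The tumours differed in how far their P450 genes lay from 0. Members beyond 0.2 in either direction numbered 5 in tumour 1, 34 in tumour 2, 3 in tumour 3 and 14 in tumour 4. These were 6.94%, 47.2%, 4.17% and 19.4% of the members, beside 12.8%, 48.5%, 10.8% and 18.4% of all autosomal genes. Tumour 2, whose array had the widest spread between neighbouring probes, thus held the most distant values among P450 genes as among all genes.

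The Cyp2d cluster on chromosome 15 had the highest ratios of the family. Cyp2d enzymes oxidise many basic drugs, and 4 of their genes were on the array within 372 kb, each with 1 probe. Cyp2d11 read 0.32, 0.77, 0.061 and 0.27 in tumours 1 to 4, and Cyp2d9, expressed mainly in male liver, read 0.35, 0.67, 0.12 and 0.38. Cyp2d34 read 0.17, 0.85, 0.16 and 0.19, and Cyp2d40 read 0.19, 0.78, 0.25 and 0.46. All 16 values were positive, and tumour 2 was the highest and the only one above 0.5 at each gene. The cluster mean was 0.26, 0.77, 0.15 and 0.32, on average 0.37 ± 0.27 (SD, n = 4), and without tumour 2 it was 0.24. With the sign of tumour 1 turned it was 0.25, and with that of tumour 4 turned 0.21.

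Chromosome 15 was itself high. Its other probes averaged 0.21, 0.29, 0.14 and 0.24, a mean of 0.22 ± 0.063 (SD, n = 4) and above 0 in 4 of 4 tumours. The difference between the Cyp2d cluster and the rest of the chromosome was 0.045, 0.48, 0.0090 and 0.086, on average 0.16 ± 0.22 (SD, n = 4), less than its SD, and without tumour 2 it was 0.047. Taking all 19 probes between the outermost Cyp2d probes, whatever gene they name, the region read 0.26, 0.54, 0.13 and 0.23, and the 188 probes within 1 Mb on either side read 0.22, 0.36, 0.15 and 0.16. The region exceeded its flanks by 0.065 ± 0.082 (SD, n = 4), again less than the SD. The cluster mean was above the rest of the chromosome in 4 of 4 tumours, but each of the genes fell short of the chromosome mean somewhere, Cyp2d11 and Cyp2d9 in tumour 3, Cyp2d34 in tumours 1 and 4 and Cyp2d40 in tumour 1.

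In a segmentation of each array, in which segments of at least 5 probes with a mean at or beyond 0.2 were called, the Cyp2d genes lay in called gains in tumours 1 and 2. The segments that held them averaged 0.21, 0.36, 0.14 and 0.19 in tumours 1 to 4, the last 2 short of the threshold. The fifth member of chromosome 15, Cyp11b1, a steroid hydroxylase of the adrenal cortex at chr15:74670546-74670605, lay in called gains in tumours 1, 2 and 4. Its own probe read 0.040, 0.039, -0.23 and -0.012, below the chromosome mean in all 4 tumours and on average -0.042 ± 0.13 (SD, n = 4). In all, called gains held 5 members in tumour 1, 5 in tumour 2 and 1 in tumour 4, or 6.94%, 6.94% and 1.39%, beside 4.0%, 4.6% and 2.18% of all autosomal genes. In tumour 3 called gains held 0 members and 0.0234% of all genes. Every member in a called gain was on chromosome 15.

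**Figure D2:**
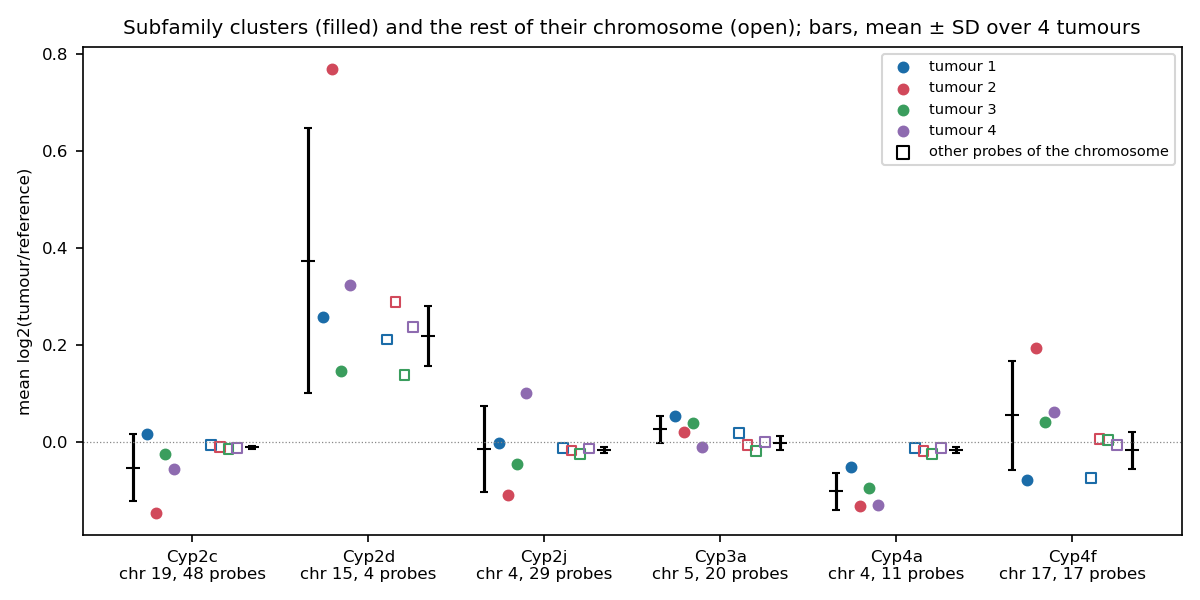
Mean log2 ratio of tumour over reference (vertical axis) of the member probes of 6 subfamily clusters (filled circles, 1 per tumour) and of all other probes of the same chromosome (open squares), with black bars for the mean ± SD over 4 tumours. Cyp2d is the highest cluster in every tumour and shares that position with chromosome 15, on which it lies. The Cyp4a cluster lies below 0 in 4 of 4 tumours, in tumour 2 only through 1 probe at -1.87.

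Several of the lowest members lay on chromosomes 9 and 12. Cyp1a1 and Cyp1a2, which lie side by side on chromosome 9 and encode enzymes that oxidise polycyclic aromatic hydrocarbons and aromatic amines, were both below 0 in 4 of 4 tumours. Cyp1a1 read -0.086, -0.25, -0.17 and -0.39, on average -0.23 ± 0.13 (SD, n = 4). Its limma adjusted p was 0.112, and it ran from 0.0282 to 0.968 over the alternatives. Cyp1a2, with 1 probe, read -0.22, -0.18, -0.15 and -0.20, on average -0.19 ± 0.033 (SD, n = 4), the values of the 4 tumours lying close together. Chromosome 9 as a whole read -0.17, -0.0031, -0.12 and -0.20, so tumour 2 was near 0 over the chromosome and low at both Cyp1a genes. After subtraction of the chromosome, Cyp1a1 averaged -0.10 ± 0.15 and Cyp1a2 -0.064 ± 0.078 (SD, n = 4).

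Cyp11a1, the mitochondrial enzyme that cleaves the side chain of cholesterol in steroid-forming cells, lies on the same chromosome. It read -0.14, 0.45, -0.064 and -0.25, on average -0.0029 ± 0.31 (SD, n = 4), and only tumour 2 was above 0. These 3 genes were the only members in called losses, in tumour 4 alone, where their segment averaged -0.21. With the sign of tumour 4 turned these would be calls of gain, and the gain called there at Cyp11b1 a loss. They made up 4.17% of the members, beside 5.55% of all autosomal genes in called losses of that tumour. In tumours 1, 2 and 3, where called losses held 0 members, the shares of all genes were 0.117%, 0.319% and 0.00937%.

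Cyp46a1 is the only member on chromosome 12 and encodes the cholesterol 24-hydroxylase of neurons. Its probe read -0.22, -0.20, -0.18 and -0.28, on average -0.22 ± 0.046 (SD, n = 4). The chromosome read -0.17, -0.034, -0.11 and -0.18, and relative to it the gene averaged -0.095 ± 0.053 (SD, n = 4), below 0 in 4 of 4 tumours. With the trend of the ratio on probe brightness removed the gene averaged -0.078, and with normexp background correction -0.43.

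The Cyp4a cluster on chromosome 4 was the only one of the 6 clusters below 0 in all 4 tumours. Its enzymes hydroxylate the end carbon of fatty acids such as arachidonic acid, and its 7 genes held 11 probes. The cluster averaged -0.050, -0.13, -0.093 and -0.13, a mean of -0.10 ± 0.038 (SD, n = 4), against -0.016 for the rest of the chromosome. Its median over probes averaged -0.022. The mean of tumour 2 includes the Cyp4a12a probe shown above, which read -1.87 there, the value farthest from 0 among the 11 probes. The other probes read 0.088, 0.30, 0.51, -0.80, 0.50, 0.45, -0.54, 0.23, -0.047 and -0.27 in tumour 2, which average above 0. The negative sign of the cluster mean in tumour 2 therefore rests on this 1 probe. All 21 probes across the region differed from their flanks by -0.042 ± 0.075 (SD, n = 4), less than the SD.

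Within the cluster the genes differed. Cyp4a14 read -0.11, -0.15, -0.17 and -0.17, on average -0.15 ± 0.028 (SD, n = 4), and had the smallest limma adjusted p of the family, 0.109 (0.0332 to 0.941 over the alternatives). Its 2 probes went opposite ways, with means of -0.44 and 0.13, so its narrow spread is that of an average of unlike probes. Cyp4a12a, expressed mainly in males, read -0.19, -0.89, -0.19 and -0.12, on average -0.35 ± 0.36 (SD, n = 4; limma adjusted p = 0.220, and 0.0221 to 0.941 over the alternatives). Without tumour 2 it averaged -0.17. Its low value came from the probe shown above, which averaged -0.69, while its other probe averaged -0.0090.

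The remaining Cyp4a genes lay on both sides of 0. Cyp4a10, a target of the fatty acid receptor PPAR alpha, read 0.014, -0.045, -0.13 and -0.21. Cyp4a12b, with 1 probe, read -0.094, 0.30, 0.10 and 0.27, and Cyp4a30b, also with 1 probe, read 0.23, 0.51, -0.080 and -0.46. In Cyp4a30b the tumours thus spanned 0.97, the widest range of any member.

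The Cyp2c cluster on chromosome 19, with 11 genes and 48 probes the best covered, lay close to 0. Its enzymes oxidise drugs and arachidonic acid. The cluster averaged 0.017, -0.14, -0.024 and -0.055, a mean of -0.052 ± 0.069 (SD, n = 4), and -0.041 ± 0.069 relative to the rest of chromosome 19. Over 72 probes in 1171 kb the region differed from its flanks by -0.045 ± 0.053 (SD, n = 4), below them in 4 of 4 tumours and by less than the SD. Cyp2c65 was the lowest gene, at -0.028, -0.27, -0.15 and -0.22, on average -0.17 ± 0.10 (SD, n = 4; limma adjusted p = 0.164, and 0.0404 to 0.941 over the alternatives), and 1 of its 3 probes carried it, averaging -0.45 against -0.00024 and -0.047 for the others. Cyp2c66 was the highest, with a mean of 0.039 ± 0.071 (SD, n = 4). Cyp2c29 averaged -0.086 ± 0.089, Cyp2c37 -0.087 ± 0.17, Cyp2c38 -0.067 ± 0.12 and Cyp2c44, which stands apart from the others on the chromosome, 0.0089 ± 0.095 (SD, n = 4).

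The means of the Cyp2j, Cyp3a and Cyp4f clusters did not exceed their SD over tumours. Cyp2j enzymes form epoxides of arachidonic acid, and the 8 genes on chromosome 4 averaged -0.0022, -0.11, -0.044 and 0.10, a mean of -0.013 ± 0.088 (SD, n = 4). Their gene means ran from -0.096 for Cyp2j5 through -0.088 for Cyp2j8 and -0.086 for Cyp2j7 to 0.066 for Cyp2j9 and 0.067 for Cyp2j11. The values of the Cyp2j cluster include the Cyp2j9 probe shown above, which read -0.93 in tumour 3 and 1.40 in tumour 4. Cyp3a enzymes oxidise a large share of drugs as well as steroids, and the 7 genes on chromosome 5 averaged 0.054, 0.021, 0.041 and -0.0089, a mean of 0.027 ± 0.027 (SD, n = 4), which became -0.039 once the trend of the ratio on probe brightness was removed.

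Among the Cyp3a genes, Cyp3a44 read 0.097, 0.23, 0.037 and 0.18, on average 0.14 ± 0.087 (SD, n = 4; limma adjusted p = 0.197, and 0.0316 to 0.944 over the alternatives). It was above 0 in 4 of 4 tumours, but averaged -0.033 once the trend on probe brightness was removed. Cyp3a11, the main Cyp3a enzyme of mouse liver, averaged 0.066 ± 0.069, Cyp3a13 averaged -0.073 ± 0.096 and Cyp3a41a -0.091 ± 0.18 (SD, n = 4). The Cyp4f genes, whose enzymes hydroxylate leukotrienes and long fatty acids, averaged -0.078, 0.19, 0.043 and 0.063 over the 6 neighbours on chromosome 17, a mean of 0.055 ± 0.11 (SD, n = 4). All 50 probes across the Cyp4f region exceeded their flanks by 0.015, 0.011, 0.026 and 0.020, on average 0.018 ± 0.0064 (SD, n = 4), a small difference that was above 0 in 4 of 4 tumours. The same difference was -0.0061 ± 0.040 for Cyp2j and 0.013 ± 0.056 for Cyp3a (SD, n = 4). Cyp4f13 (0.12 ± 0.19) and Cyp4f15 (0.078 ± 0.11) were the highest, and Cyp4f18 on chromosome 8 (-0.056 ± 0.064), Cyp4f17 (-0.033 ± 0.030) and Cyp4f14 (-0.027 ± 0.099; SD, n = 4 each) the lowest.

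**Figure D3:**
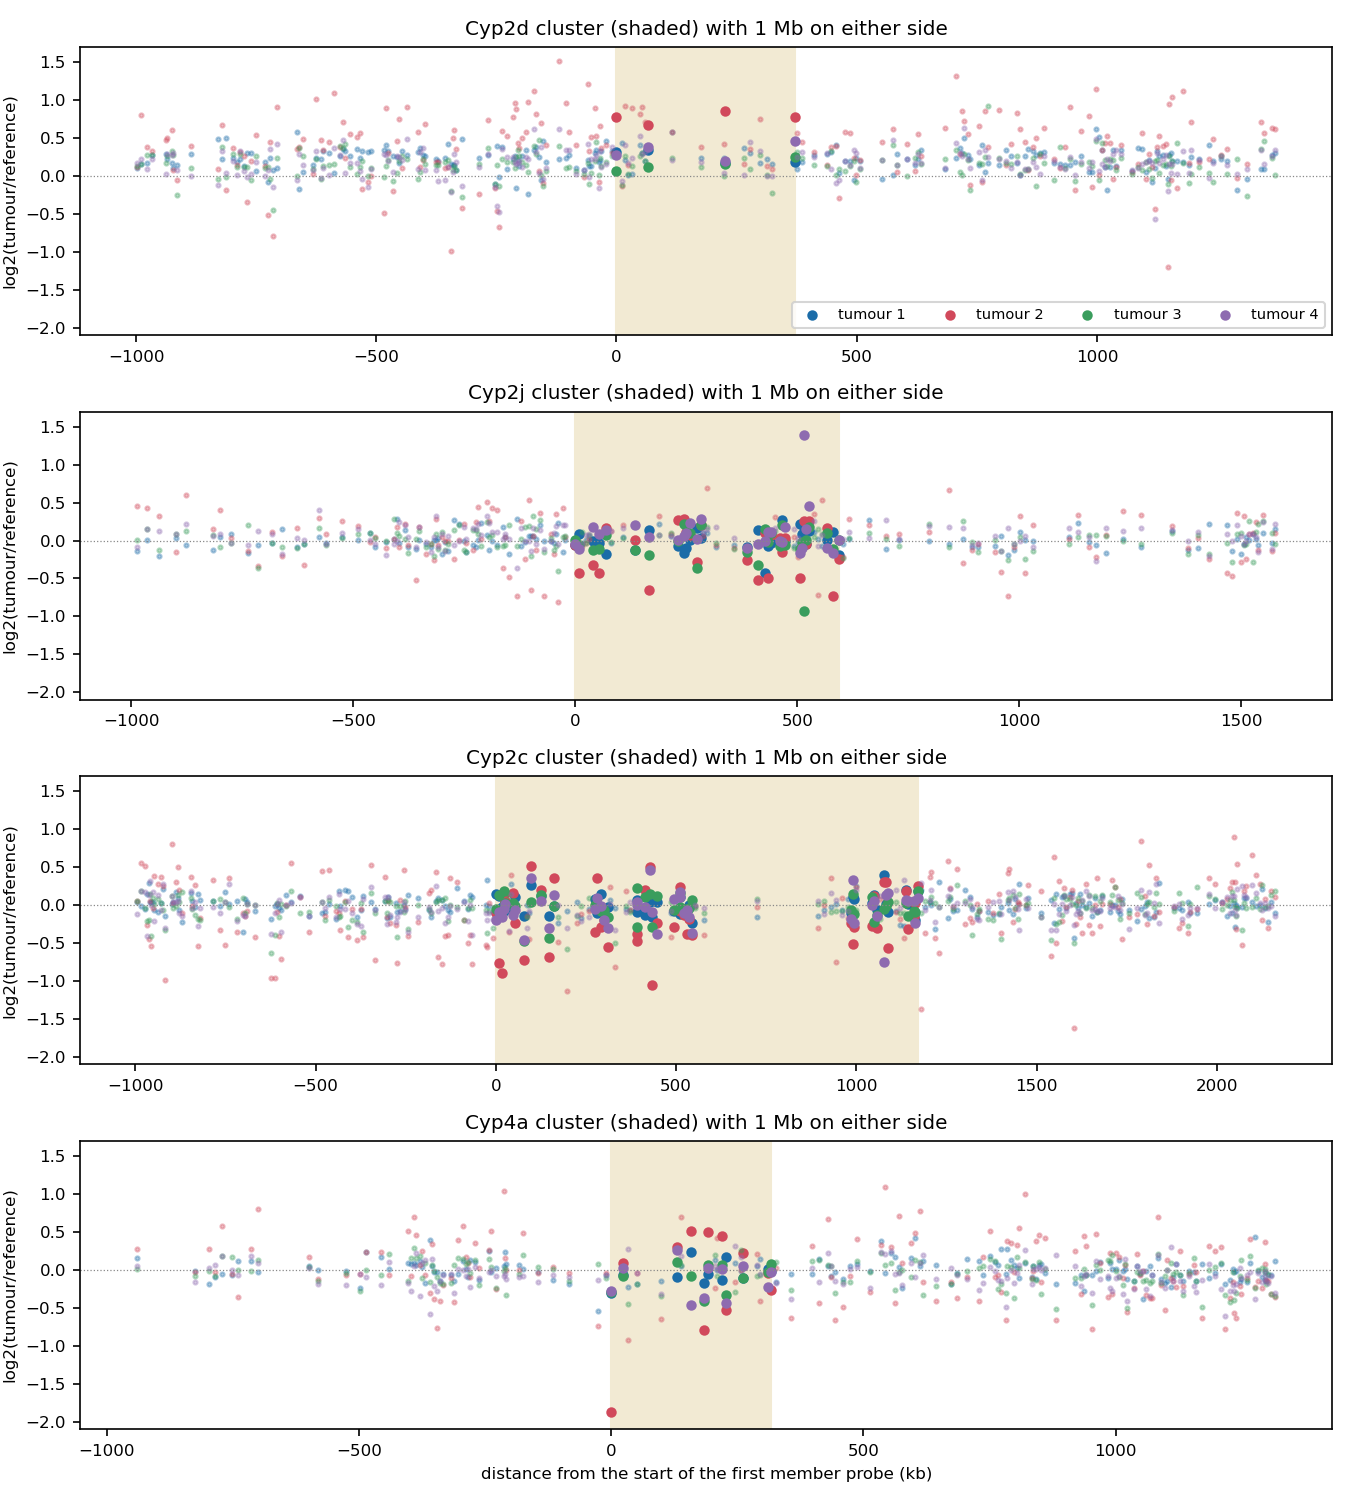
Log2 ratio of tumour over reference (vertical axis) of each probe across the Cyp2d, Cyp2j, Cyp2c and Cyp4a clusters (shaded) and 1 Mb on either side, against the distance from the start of the first member probe in kb (horizontal axis); large points are member probes, small points other probes, and colours are tumours. The Cyp2d region and its flanks lie together above 0, the other 3 regions lie around 0 like their flanks, and single probes stand apart from their neighbours.

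The genes of bile acid and sterol metabolism were near 0. Cyp7a1, the rate-limiting enzyme of bile acid synthesis, read 0.082, -0.040, 0.084 and -0.010, on average 0.029 ± 0.063 (SD, n = 4; limma adjusted p = 0.717, and 0.220 to 0.950 over the alternatives). Cyp27a1, the sterol 27-hydroxylase, averaged -0.018 ± 0.076 and Cyp7b1, the oxysterol 7-alpha-hydroxylase, 0.000091 ± 0.046 (SD, n = 4). Cyp39a1, which hydroxylates 24-hydroxycholesterol, averaged -0.027 ± 0.064, and Cyp51, the lanosterol demethylase of cholesterol synthesis, 0.043 ± 0.064 (SD, n = 4). None of these 5 genes had a mean as large as its SD.

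Genes of steroid, vitamin D and retinoic acid metabolism included the highest members outside chromosome 15. Cyp21a1, the steroid 21-hydroxylase, read 0.051, 0.82, 0.22 and 0.23, on average 0.33 ± 0.34 (SD, n = 4; limma adjusted p = 0.216, and 0.0462 to 0.941 over the alternatives). Its 2 probes were alike, averaging 0.31 and 0.35, with 43.1% and 43.8% G and C. It averaged 0.17 without tumour 2 and 0.15 with the trend on probe brightness removed. Cyp26c1, a retinoic acid hydroxylase, read 0.20, 0.47, 0.066 and 0.14, on average 0.22 ± 0.18 (SD, n = 4; limma adjusted p = 0.174, and 0.0348 to 0.941 over the alternatives). Cyp26a1, its neighbour on chromosome 19 and of the same activity, read 0.045, -0.64, 0.15 and -0.062 at its 1 probe, so the neighbours parted most in tumour 2. G and C made up a share of 0.27 of the Cyp26a1 probe and on average 0.375 of the 2 Cyp26c1 probes. On the array of tumour 2 the ratio varied with this share, and its part in the difference was not tested.

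Cyp26b1 averaged -0.014 ± 0.11 (SD, n = 4). Of the vitamin D enzymes, the 25-hydroxylase Cyp2r1 read 0.027, 0.024, 0.18 and 0.15 at 1 probe, above 0 in 4 of 4 tumours. The 1-alpha-hydroxylase Cyp27b1 averaged 0.12 ± 0.16 and the 24-hydroxylase Cyp24a1 -0.067 ± 0.072 (SD, n = 4), neither beyond its SD.

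The other members chosen by role or size lay on chromosomes 7, 8 and 17. Cyp2e1, which oxidises ethanol and small solvents, read 0.13, -0.29, 0.11 and -0.083 at 1 probe. Cyp2f2, known for activating naphthalene in the lung, averaged -0.063 ± 0.085 and Cyp1b1, which oxidises oestrogens and aromatic hydrocarbons, -0.027 ± 0.17 (SD, n = 4). Cyp2g1, an enzyme of the olfactory mucosa, read -0.12, -0.39, -0.065 and -0.27, on average -0.21 ± 0.15 (SD, n = 4; limma adjusted p = 0.146, and 0.0301 to 0.941 over the alternatives). It was below 0 in 4 of 4 tumours, and its lower probe, with 20% G and C, averaged -0.34 against -0.084 for the other. Cyp4v3, a fatty acid hydroxylase, read 0.0080, -0.64, -0.060 and -0.084, so tumour 2 alone was far from 0. Chromosome 8, on which it lies, was also lowest in tumour 2, at -0.088, and relative to it the gene read -0.55 there. The segment of 1911 probes that held the gene in tumour 2 averaged -0.17.

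A few single probes moved more than any gene. Probes at or beyond 1 in any tumour numbered 3 of 217 (1.38%), beside 1.64% of all autosomal probes, and 3 (1.38%) spanned at least 1 between tumours, beside 2.3%. In tumours 1, 3 and 4, the more precise arrays, 2 member probes (0.922%) spanned at least 1, beside 0.38% of all probes, and 9 (4.15%) spanned at least 0.5, beside 4.22%. The Cyp2j9 probe shown above read 0.18, 0.26, -0.93 and 1.40. Its tumour signal, as log2 relative to the median of that channel on each array, was 1.37, 0.66, 0.75 and 1.97, and its reference signal was 1.18, 0.39, 1.67 and 0.56. Both channels therefore differed between arrays, although the labels describe the reference alike for all 4. The gene read 0.11, -0.019, -0.18 and 0.35 over its 5 probes.

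The Cyp2c50 probe shown above behaved in the same manner. It read 0.40, 0.31, -0.044 and -0.75, with a tumour signal of 0.99, -0.12, 1.14 and -1.02 and a reference signal of 0.58, -0.44, 1.17 and -0.27. At the Cyp4a12a probe, which read -0.30, -1.87, -0.30 and -0.28, the tumour signal of tumour 2 was the lowest at -3.66, beside -2.42, -2.40 and -3.03 for tumours 1, 3 and 4. Its reference signal was -2.13, -1.80, -2.12 and -2.76, and the probe had 23.3% G and C. The third probe at or beyond 1, of Cyp2c38 at chr19:39523316-39523375, reached -1.05 in tumour 2, beside -0.15, -0.28 and -0.095 in tumours 1, 3 and 4.

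**Figure D4:**
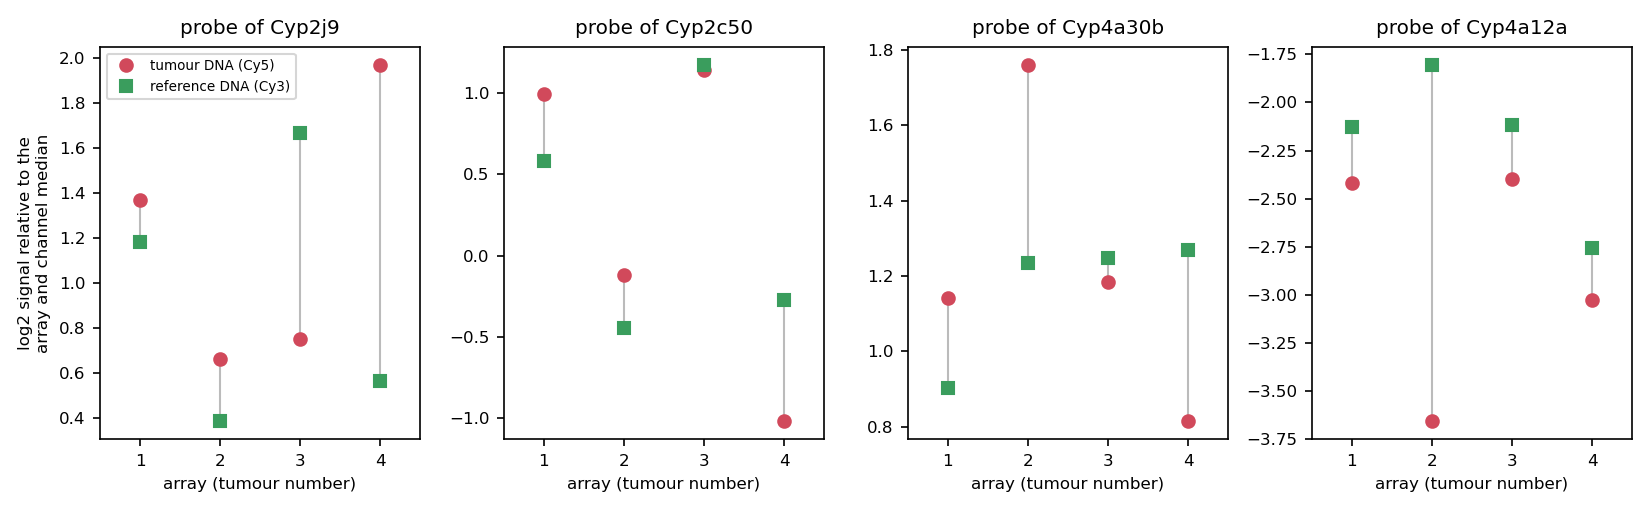
Log2 signal relative to the median of the same array and channel (vertical axis, on a scale of its own in each panel) of 1 probe each of Cyp2j9, Cyp2c50, Cyp4a30b and Cyp4a12a, by array (horizontal axis), for tumour DNA (circles) and reference DNA (squares); the grey line between them is the log2 ratio. At the Cyp2j9, Cyp2c50 and Cyp4a12a probes the reference signal differs between arrays as well as the tumour signal. At the Cyp4a12a probe the tumour signal is lowest, and the reference signal highest, on array 2.

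In tumour 2 the ratio of a P450 probe varied with its base composition. Across the 217 member probes, which share the array and the dyes, the ratio correlated with the share of G and C at r = 0.12, 0.49, -0.027 and 0.12 in tumours 1 to 4, and across all autosomal probes at 0.085, 0.28, 0.060 and 0.095. In tumour 2 the 39 member probes under 35% G and C averaged -0.28 and the 19 with at least 40% averaged 0.40. In tumours 1, 3 and 4 both groups of probes lay between -0.051 and 0.042. With the trend on G and C removed, an alternative chosen after seeing the data, the Cyp2d cluster averaged 0.36, Cyp21a1 0.20 and Cyp4a12a -0.26. Of the 51 members named by the rule given below, 50 then kept a mean within the SD over tumours and 1 did not, and 3 changed sign. The part of base composition in the values of tumour 2 by themselves was not tested.

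**Figure D5:**
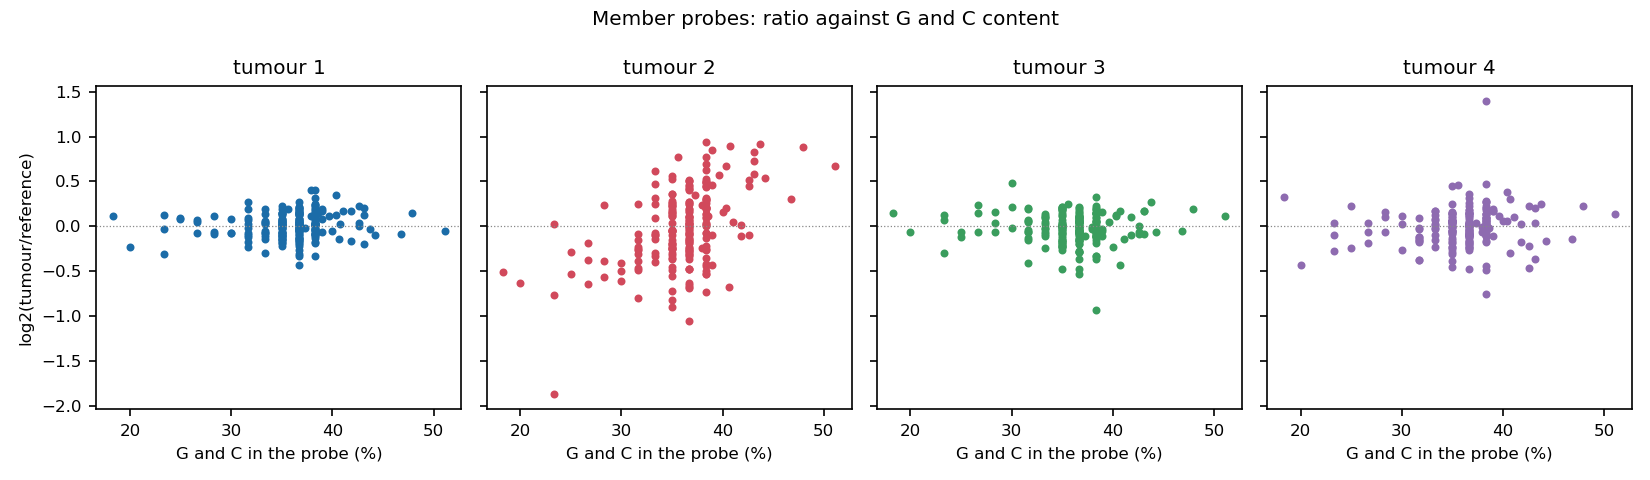
Log2 ratio of tumour over reference (vertical axis) against the share of G and C in the probe in percent (horizontal axis) for the 217 member probes, with 1 panel per tumour. The points of tumour 2 slope upward (r = 0.49) and those of the other tumours stay level (r from -0.027 to 0.12).

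The different probes of 1 gene often pointed opposite ways. Of the 56 members with at least 2 probes, 37 (66.1%) had probe means on both sides of 0, against 72.9% of all such genes. Gene ranges of at least 0.5 between tumours were seen in 5 of the 56 (8.93%), beside 8.28% of all. These shares of the family were close to those of all genes.

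The genes that serve or control P450 enzymes were read in the same fit. Of 32 listed electron donors, haem enzymes, nuclear receptors and other regulators, 26 were matched to autosomal genes of the array and 24 had at least 2 probes. Limma called 0 higher and 0 lower (0.0% of all genes either way), with 8 (33.3%) at an unadjusted p under 0.05 against 19.0% of all tested genes. Among these 8, Cyb5r3, Ppara, Vdr and Srebf2 lie on chromosome 15, itself high, and Ahr on chromosome 12, itself low. The others were Hmox2, Nr1i2 and Rxra. With the mean of the chromosome subtracted, limma again called 0 of the listed genes (0.0% of all genes either way). Of the 26, 7 (26.9%) were above 0 in all 4 tumours against 15.3% of all genes, and 4 of these 7 lie on chromosome 15. Another 4 (15.4%) were below 0 in all 4 against 15.6%. The largest mean was that of Cyb5r3, the cytochrome b5 reductase, which lies on chromosome 15 as does Cyp2d, with 0.11, 0.62, 0.59 and 0.29, on average 0.40 ± 0.24 (SD, n = 4). Srebf2, a regulator of cholesterol synthesis genes on the same chromosome, averaged 0.31 ± 0.21, and Rxra, the partner receptor of many nuclear receptors, on chromosome 2, 0.31 ± 0.30 (SD, n = 4).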

How the data were processed

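The arrays were read with Agilent Feature Extraction, version 12.0.1.1 per the file headers and 12.0.0 per the submitters' processing notes, with positions on mm9. The deposited processed intensity of each channel had been background-subtracted and dye-normalized by the authors, per the file headers. The deposited log10 ratio differed by at most 0.001 from the one computed here at 99.7% or more of the spots. From the deposited intensities, log2 of red over green was computed, flagged spots (81 to 258 per array) were left out, and each array was centred on its autosomal median. No loess or quantile normalization was applied. Gene means were tested with limma 3.58.1 (lmFit with an intercept, eBayes; R 4.3.3) on genes with at least 2 probes and Benjamini-Hochberg adjustment. Nothing says more of the tumours than that they came from separate mice, and p-values measure the spread between these 4 samples only. Segments came from penalised least squares (penalty factor 3). Chromosome-relative values subtract the chromosome mean.

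The members and lists were chosen with earlier results of these data known. Genes were named by role (27 of 32 on the array), as the 2 highest and 2 lowest means of each cluster, as the 8 largest means and ranges, and for probes at or beyond 1. By this rule 51 members are named. Cyp2c50 is named besides, because 1 of its probes spanned at least 1 between tumours. The alternatives were normexp background correction (offset 50), centring on the mode, flagged spots kept, the brightness trend removed, the deposited log ratio, the median over probes, single-probe genes included, a variance trend on probe number, the slide as a random block, each tumour left out, the sign of tumour 1 or 4 turned, other segment thresholds and penalties and, chosen after seeing the data, the G and C trend removed. Genes that the array lists on several chromosomes (28) were left out. The fit was tested on simulated data.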

Additional observations from a re-analysis of the deposited data

Results flagged for a closer look

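Of 63 values examined (the 6 clusters on each scale and the named genes), 6 had 1 tumour farther from the others than the critical value for 4 samples allows, and in all 6 this was tumour 2, whose array had the widest spread between neighbouring probes. The critical value marks about 5% of independent groups whose samples have equal spread. The named genes were partly chosen for large means and ranges, and the clusters contain some of them. That rate therefore cannot be set against the 6 values found here. The Cyp2d cluster stood 0.48 above the rest of chromosome 15 in tumour 2, beside 0.0090 to 0.086 in the others, and its gene Cyp2d34 read 0.85, beside 0.16 to 0.19. Cyp4a12a read -0.89, beside -0.19 to -0.12, and Cyp4v3 read -0.64, beside -0.084 to 0.0080. Cyp2c37 read -0.34, beside -0.029 to 0.033, and Cyp2c38 read -0.24, beside -0.034 to 0.0067. The part of the noise and of the G and C trend of this array in these values was not tested.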

How the results depend on the processing

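No paired analysis was possible because the design has 1 group. Over all alternatives 235 counts and cluster means stayed within 1.5 times the count or within the SD over tumours, and 25 did not. For the 51 named genes, 630 means stayed within the SD and 33 did not, and up to 9 genes changed sign under 1 alternative (the sign of tumour 4 turned). Normexp background correction gave limma calls of 3 members higher (Cyp21a1, Cyp26c1, Cyp3a44) and 5 lower (Cyp1a1, Cyp2c37, Cyp2c65, Cyp2g1, Cyp4a12a), 9 members above and 18 below 0 in all tumours, a Cyp2c mean of -0.13 (-0.12 relative to the chromosome), a Cyp3a mean of 0.077 (0.082 relative) and 9 members in called losses. With the slide as a random block 4 were called lower (Cyp1a1, Cyp2c65, Cyp2g1, Cyp4a14), each with a smaller standard error than in the main fit. Removing the brightness trend turned the Cyp3a mean to -0.039 (-0.045 relative), and the median over probes gave -0.022 for Cyp4a (-0.0060 relative). With the sign of tumour 4 turned, Cyp4a averaged -0.036 (-0.026 relative) and 3 members were below 0 in all tumours. With the sign of tumour 1 turned, 5 members were above and 10 below 0 in all tumours, the Cyp3a mean was -0.00025, and 8 of the 51 named genes changed sign. Leaving out 1 tumour in turn gave 0 to 2 members called lower (2 without tumour 2, Cyp4a12a and Cyp4a14) and 0 higher, 5 to 9 members above 0 (9 without tumour 1 or 4) and 10 to 18 below 0 in all those left (18 without tumour 1). A segment threshold of 0.1 gave 27 gained and 13 lost member calls and 0.3 gave 5 and 0, against 11 and 3 at 0.2. The counts by sign and by segment in this section stand without the share of all genes under the same setting. They show how the counts move with the processing and are not read as results about the P450 genes.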
